A study of Mus musculus with 8 samples.

Results

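Proteoglycans are a group of matrix proteins, most of which carry glycosaminoglycan chains. Of those in the vessel wall, 9 were followed here at the transcript level: Bgn, Dcn, Lum, Fmod, Vcan, Ogn, Prelp, Aspn and Hspg2. They were taken by gene symbol from a table of 24391 genes, and all 9 were listed and passed the filter on low counts. The tissue was the atherosclerotic lesion of the brachiocephalic artery, a short branch of the aortic arch in which advanced plaques form in mice. Antibody animals 1 to 4 received anti-IL-1β, which binds the macrophage cytokine interleukin-1β, and IgG animals 1 to 4 received control immunoglobulin. Per the labels, all 8 were C57BL/6 mice that ate Western diet over 18 weeks, and per the design text they were wild type in a line for tracing smooth muscle cells. The labels give no age, dose or further allele. The published study describes such lines as carrying an inducible Cre driven by the smooth muscle promoter of Myh11 with a fluorescent reporter and lacking Apoe, which is background and is not in the labels. One library was 1 animal, and RNA came from the whole lesion segment, so fewer cells of a type and less RNA per cell cannot be told apart.

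In an artery, proteoglycans fill the space between collagen and elastic fibres, set the spacing of collagen fibrils and bind growth factors. Their negatively charged chains also hold apolipoprotein B lipoproteins in the intima, a step thought to begin plaque formation. Biglycan (Bgn), decorin (Dcn), asporin (Aspn), lumican (Lum), fibromodulin (Fmod), prolargin (Prelp) and osteoglycin (Ogn) are small leucine-rich proteoglycans, whose curved protein core binds collagen. Versican (Vcan) is a large chondroitin sulfate proteoglycan that binds hyaluronan, and perlecan (Hspg2) is the large heparan sulfate proteoglycan of basement membranes.

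Libraries held 20137336 to 29453014 counts assigned to genes, and the 9 genes together took 0.313% to 0.605% of them in antibody animals and 0.422% to 0.646% in IgG animals. Each of the 9 had at least 478 counts in every library, so counting noise is small beside the differences between animals. A pair of libraries stood apart. Antibody animal 3 had the highest summed level of 8 adipocyte markers, 9374 CPM (counts scaled to a common library size, with TMM factors), against 3656 to 5371 CPM in the other antibody animals and 4548 to 4702 CPM in IgG animals. IgG animal 2 had the lowest share of alignments assigned to genes (24.4%, against 33.2% to 34.9% in the other IgG animals) and the highest summed level of 10 skeletal and cardiac muscle markers. Markers of cells of the lesion were present throughout: the 8 smooth muscle markers summed to 1476 to 3991 CPM in antibody and 2266 to 2977 CPM in IgG animals, and the 9 macrophage markers to 1296 to 1829 CPM in antibody and 1201 to 2593 CPM in IgG animals.

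Several of the genes are neighbours. In the deposited mm9 coordinates, Dcn (chr10:96942134-96980796) and Lum (chr10:97028135-97035337) lie in 1 cluster with the related genes Kera and Epyc over 202 kb. Aspn (chr13:49639812-49662931) and Ogn (chr13:49703440-49719869) lie with Ecm2 and Omd over 119.7 kb. Prelp (chr1:135806882-135817978) and Fmod (chr1:135934092-135944854) lie with Optc over 151 kb. Vcan (chr13:89794915-89882117) sits next to Hapln1, which encodes a protein that links it to hyaluronan. Bgn (chrX:70728974-70741275) and Hspg2 (chr4:137024718-137126545) have no related proteoglycan gene as their nearest neighbour. These spans run from the first to the last exon.

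RefSeq promoters (GRCm38.p6) were listed for 7 of the 9 genes, all but Dcn and Lum. The 100 bases before the start are shown for 4 of them, because the levels of Bgn, Vcan and Aspn were correlated over the animals and no pair with Hspg2 passed that test. Capitals mark GGGCGG or its complement CCGCCC, the GC box read on either strand; neighbouring matches can share bases.
Bgn, chrX:73483501-73483600, plus strand: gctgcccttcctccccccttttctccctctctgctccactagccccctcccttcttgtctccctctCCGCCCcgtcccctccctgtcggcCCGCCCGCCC
Vcan, chr13:89742513-89742612, minus strand: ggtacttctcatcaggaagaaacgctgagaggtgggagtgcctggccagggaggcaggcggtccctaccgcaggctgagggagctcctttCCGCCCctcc
Aspn, chr13:49544343-49544442, plus strand: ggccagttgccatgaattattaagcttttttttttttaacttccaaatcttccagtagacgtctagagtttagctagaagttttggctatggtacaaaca
Hspg2, chr4:137468703-137468802, plus strand: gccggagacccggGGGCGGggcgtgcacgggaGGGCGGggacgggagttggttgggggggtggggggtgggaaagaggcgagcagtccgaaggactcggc

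Over the 250 bases before the start, GC content was 64.4% for Bgn, 62.4% for Vcan and 30.0% for Aspn, against 70.0% for Hspg2 and a median of 52.4% over 32851 promoters. The promoters of the correlated genes Bgn and Aspn thus differed widely in composition. In that window GGGCGG was found in Bgn, Vcan and Hspg2 (32.7% of all promoters hold it), CCAAT in Aspn, Prelp and Vcan (33.8%) and TATAAA in Ogn and Aspn (12.4%), each on either strand. No match was found in the 7 windows for TGANTCA, a loose form of the AP-1 motif (6.7% of all promoters), or for the NF-kB consensus (3.9%). AP-1 and NF-kB are transcription factors that act downstream of the IL-1 receptor. These are matches of letters only. Few promoters hold the AP-1 or NF-kB motif, so their absence from 7 windows says nothing about the antibody comparison.

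Per kilobase of exon, the genes formed 3 tiers. Decorin, biglycan and lumican led, with mean levels over the 8 animals of 513, 475 and 388 CPM per kilobase. Hspg2, Prelp and Ogn followed at 93.3, 84.1 and 59.8 CPM per kilobase, and Aspn, Fmod and Vcan at 14.9, 13.2 and 10.2 CPM per kilobase. Between tiers the ranges over animals did not overlap: Lum exceeded Hspg2 in 8 of 8 animals, by 4.16 times on the means, and Ogn exceeded Aspn in 8 of 8, by 4.01 times. Within tiers the neighbours overlapped, with Dcn above Bgn in 5 of 8 animals, Hspg2 above Prelp in 6 of 8 and Aspn above Fmod in 5 of 8. Among the 15980 genes tested, Dcn ranked 60th on this scale, Bgn 67th and Lum 107th. The length of Vcan, 14689 bases, joins alternatively spliced exons, so its level per length is a lower estimate where short isoforms are made.

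**Figure D1:**
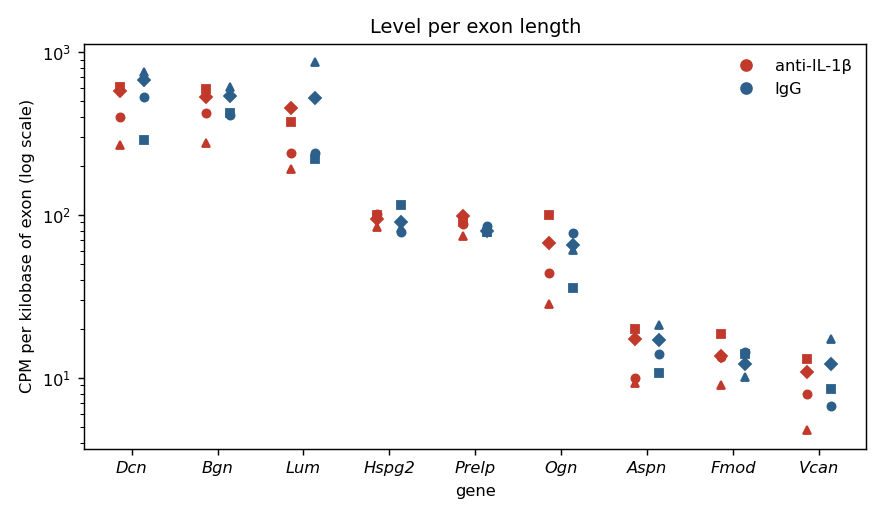
CPM per kilobase of exon (log scale) for each of the 9 genes; each point is 1 animal, red for anti-IL-1β and blue for IgG, with marker shapes for animals 1 to 4. Dcn, Bgn and Lum lie at or above 190.6 CPM per kilobase in every animal, and Hspg2, Prelp and Ogn lie between 28.4 and 114.5.

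No difference between antibody and IgG lesions exceeded the spread between animals for any of the 9 transcripts. In the quasi-likelihood test of edgeR, with p-values adjusted over all genes (Benjamini-Hochberg), 0 of 9 passed an adjusted p of 0.05, where 0% of all genes tested did, and each of the 9 had an adjusted p of 0.9997. An unadjusted p under 0.05 was reached by 0 of 9, against 3.19% of all genes. DESeq2 also called 0 of 9, against 0.0501% of all genes, and limma-voom with sample weights 0 of 9, against 0.0125%. The values of antibody and IgG animals overlapped for all 9, whereas groups without overlap were found for 1.96% of the genes tested. Fold changes were below 0 for 5 of 9 (52.3% of all genes), with a median log2 fold change of -0.12, against -0.01 over all genes tested. Single animals set that count, which was 3 of 9 without antibody animal 3 and 3 of 9 without IgG animal 3.

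Biglycan and decorin, which bind collagen and the growth factor TGF-β, were the leading pair per kilobase, and biglycan is known to lie beside retained apolipoprotein B in human plaques. Bgn had 1005, 1412, 657 and 1270.0 CPM in antibody animals 1 to 4, against 982, 1007, 1456 and 1286 CPM in IgG animals 1 to 4. Antibody animal 3 was the lowest, and the other antibody animals lay within the IgG range. The fitted log2 fold change of Bgn was -0.12 ± 0.25 (SE; 95% interval -0.68 to 0.44), and without antibody animal 3 it was 0.06 (0.0555). Dcn had 829, 1273, 564 and 1198 CPM in antibody animals, against 1099, 606, 1575 and 1411 CPM in IgG animals. Low animals occurred in both groups, antibody animal 3 and IgG animal 2. The log2 fold change was -0.28 ± 0.34 (95% interval -1.03 to 0.47), so a fall to 0.489 times or a rise to 1.39 times the IgG level lies within it. It was -0.09 (-0.0928) without antibody animal 3, -0.10 (-0.105) without IgG animal 3 and -0.50 (-0.496) without IgG animal 2.

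Asporin, the aspartate-rich relative of these genes that binds collagen and restrains TGF-β, belonged to the lowest of the 3 tiers per kilobase. Aspn had 23.3, 46.6, 21.8 and 40.8 CPM in antibody animals, against 32.9, 25.1, 49.8 and 39.99 CPM in IgG animals. Antibody animals 1 and 3 lay below every IgG animal and the other antibody animals lay among them. The log2 fold change was -0.16 ± 0.29 (95% interval -0.80 to 0.49), and it was 1.08e-04 without antibody animal 3 and 0.02 (0.0221) without IgG animal 3.

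Lumican, a keratan sulfate carrier that regulates collagen fibril thickness, had the lowest fold change of the 9 and the widest interval. Lum had 499, 773, 395 and 937 CPM in antibody animals, against 495, 459, 1796 and 1082 CPM in IgG animals. IgG animals 3 and 4 were above every antibody animal, and IgG animals 1 and 2 were below all but antibody animal 3. The group means were 651 ± 248 CPM in antibody and 958 ± 627 CPM in IgG animals (SD, n = 4 each), and the log2 fold change was -0.56 ± 0.46 (95% interval -1.58 to 0.47). It was -0.06 (-0.0593) without IgG animal 3. In limma-voom, which gives less weight to variable libraries, Lum and Dcn had log2 fold changes of -0.78 and -0.55 with unadjusted p of 0.0336 and 0.0438 (adjusted p = 0.264 and 0.281 over all genes). Unadjusted p-values under 0.05 were common in limma-voom, with 2762 of the 15980 genes tested, against 509 in the edgeR fit. The 2 of 9 genes are thus not set apart from other genes there. Of all genes, 91.9% had a narrower interval than Lum in the edgeR fit.

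Fibromodulin, which resembles lumican and competes with it for collagen, and prolargin, which anchors basement membranes to collagen by binding perlecan, had fold changes above 0. Fmod had 38.2, 53.3, 25.7 and 38.8 CPM in antibody animals, against 41.0, 40.2, 29.1 and 34.6 CPM in IgG animals. Antibody animals 2 and 3 were the highest and the lowest of all 8. Its log2 fold change was 0.11 ± 0.21 (95% interval -0.36 to 0.58), and -0.09 (-0.0851) without antibody animal 2. Prelp had 315, 324, 268 and 356 CPM in antibody animals, against 307, 283, 281 and 288 CPM in IgG animals. Antibody animals 1, 2 and 4 lay above every IgG animal and antibody animal 3 lay below every one. Prelp was the steadiest of the genes, with 1.33 times between its highest and lowest animal, and its log2 fold change was 0.12 ± 0.12 (95% interval -0.14 to 0.39), which puts the ratio of antibody to IgG between 0.905 and 1.31.

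Osteoglycin, a small proteoglycan of collagen assembly also called mimecan, had near-equal group means of 152 ± 79.1 CPM in antibody and 152 ± 44.7 CPM in IgG animals (SD, n = 4 each). Ogn had 112, 254, 72.2 and 171 CPM in antibody animals, against 197, 90.4, 154 and 165 CPM in IgG animals. The antibody group held both the highest and the lowest animal of the 8. Its log2 fold change was 0.01 ± 0.37 (95% interval -0.82 to 0.84), and its sign changed in 6 of 16 alternatives, among them those without antibody animal 2 (-0.35), antibody animal 4 (-0.0527) and IgG animal 2 (-0.17).

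Of the large proteoglycans, versican forms hydrated complexes with hyaluronan in the expanding intima, and perlecan lies in the basement membranes of smooth muscle and endothelium. Vcan had 117, 192, 69.8 and 159 CPM in antibody animals, against 98.7, 125, 254 and 179 CPM in IgG animals. IgG animal 3 was the highest and antibody animal 3 the lowest. The log2 fold change was -0.29 ± 0.35 (95% interval -1.08 to 0.50), and 0.0012 without IgG animal 3. Hspg2 had 1428, 1422, 1191 and 1332 CPM in antibody animals, against 1109, 1623, 1185 and 1289 CPM in IgG animals. All antibody values lay inside the IgG range. Its log2 fold change was 0.05 ± 0.17 (95% interval -0.33 to 0.42), or a ratio between 0.797 and 1.34, and it was -0.0241 without IgG animal 1.

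**Figure D2:**
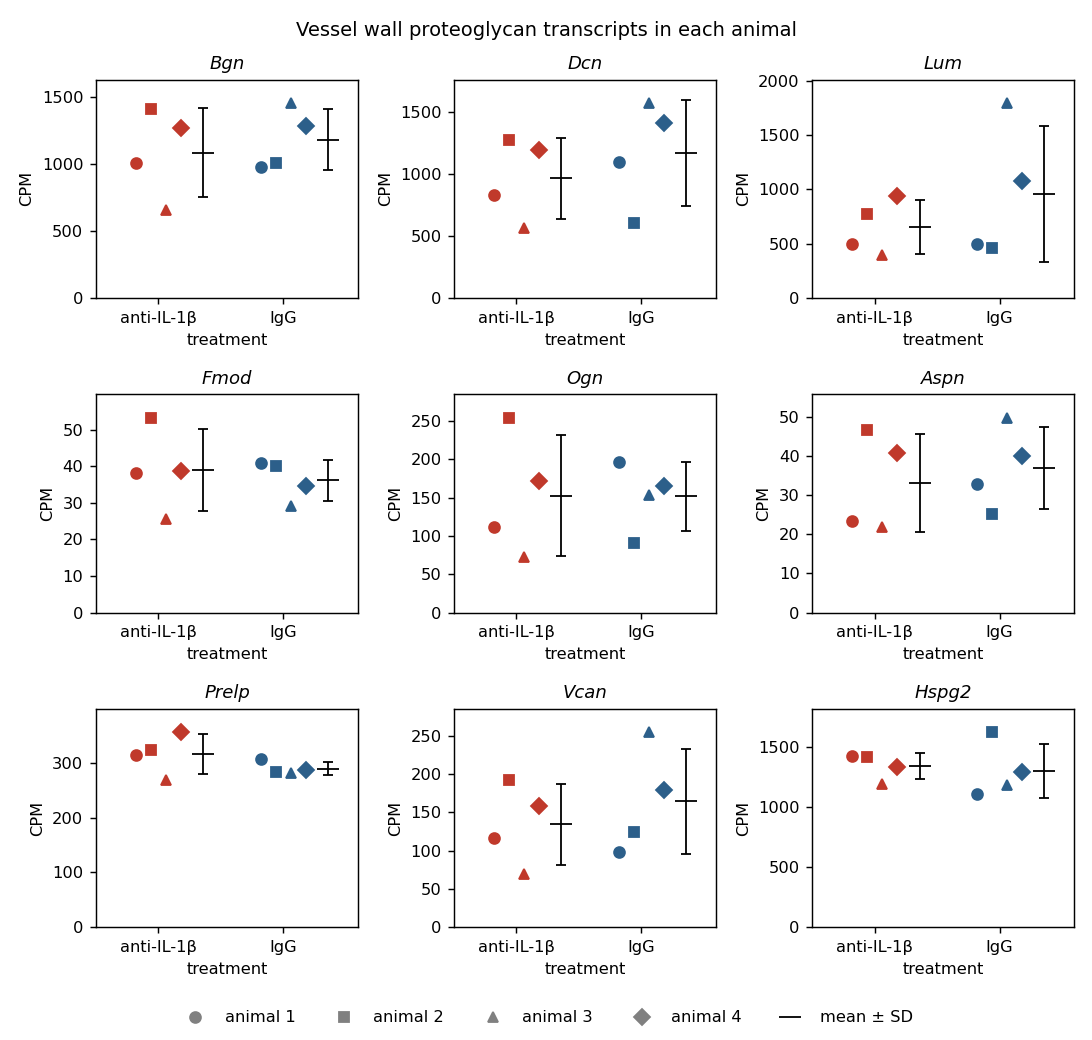
CPM of the 9 genes in each animal, one panel per gene with its own axis from 0; anti-IL-1β is on the left in red and IgG on the right in blue, marker shapes show animals 1 to 4, and bars give mean ± SD (n = 4). The groups overlap in every panel, and antibody animal 3 (red triangle) is the lowest animal in 8 of 9.

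**Figure D3:**
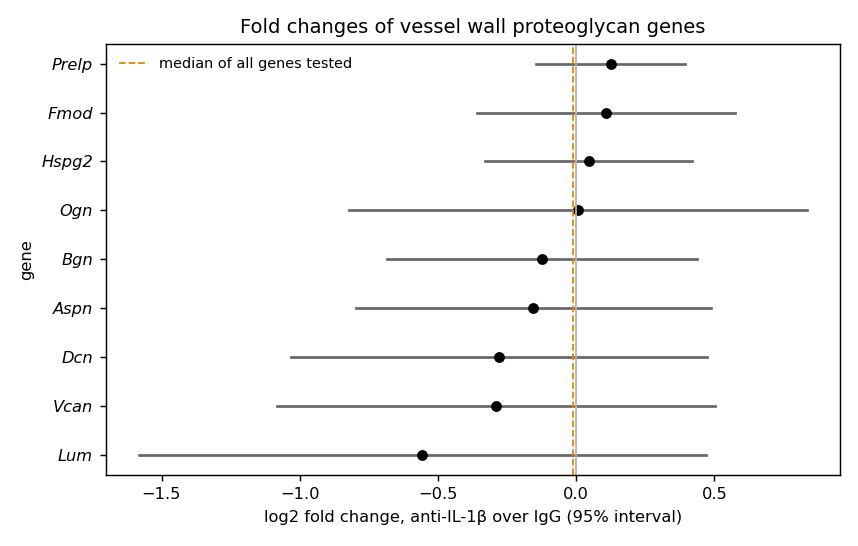
Log2 fold change of antibody over IgG with its 95% interval for each gene (edgeR, 4 against 4 animals); the dashed line is the median of all genes tested, -0.01. All 9 intervals cross 0, from Lum at -0.56 to Prelp at 0.12.

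Antibody animal 3 was the lowest of all 8 for 8 of the 9 genes, with Hspg2 the exception, and was the lowest antibody animal for all 9. Its summed level of the 9 genes was 3265 CPM, against 4367 to 5750 CPM in the other antibody animals and 4259 to 6779 CPM in IgG animals. The same library had the highest adipocyte markers (9374 CPM summed) and the lowest smooth muscle and adventitial fibroblast markers (1476 and 1933 CPM summed); their part in the result was not tested. IgG animal 3 was the highest of all 8 for 5 genes, Bgn, Dcn, Lum, Aspn and Vcan, and it also had the highest macrophage marker sum, 2593 CPM. Leaving out antibody animal 3 and IgG animal 2 together gave 0 of 9 calls and 4 of 9 fold changes below 0.

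**Figure D4:**
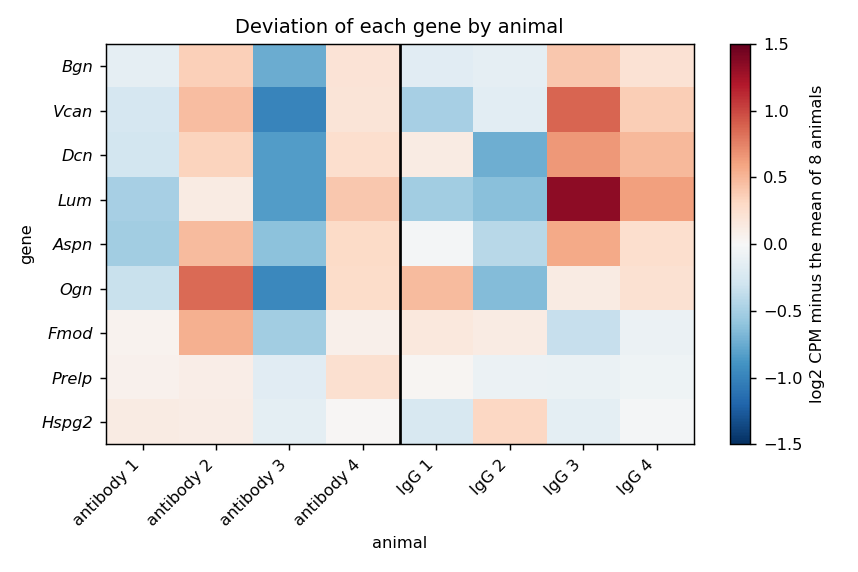
Log2 CPM of each gene minus its mean over the 8 animals, antibody animals left of the line and IgG animals right of it; red is above and blue below the gene's mean. Antibody animal 3 is below the mean for all 9 genes, and Hspg2 and Prelp vary least.

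Of the 36 pairs of genes, 9 had correlated levels over the 8 animals by both measures (exact permutation test over 40320 pairings, two-sided, adjusted over the 36 pairs). All 9 lay among Bgn, Dcn, Lum, Aspn and Vcan, whose 10 pairs had Pearson r of 0.82 to 0.96, and 0.73 to 0.96 after leaving out the 2 animals farthest from the median of the first gene. This set of 5 was picked after the correlations were seen. Pairs with genes outside the 9 were not examined, so the correlations are not shown to be particular to these genes. Bgn and Vcan ordered the 8 animals identically (r = 0.96, exact permutation p = 2.48e-05, adjusted p = 8.93e-04; rho = 1, p = 4.96e-05, adjusted p = 0.00179; r = 0.96 without antibody animal 3 and IgG animal 3). The first of these p-values is the smallest the pairings can give. The neighbours Dcn and Lum had r = 0.87 (exact permutation p = 0.00551, adjusted p = 0.0278; rho = 0.95, p = 0.00114, adjusted p = 0.0205; r = 0.88 without antibody animal 3 and IgG animal 2). Using deviations from the group means, the 10 pairs had r of 0.81 to 0.96, so these correlations remained with the treatment means removed.

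Neighbours on a chromosome were not always the closest pairs. Ogn and Aspn, from 1 cluster, had r = 0.83 (exact permutation p = 0.0135, adjusted p = 0.0406; rho = 0.67, p = 0.0831, adjusted p = 0.214; r = 0.63 without antibody animal 3 and IgG animal 2). Fmod and Prelp had r = 0.65 (exact permutation p = 0.0783, adjusted p = 0.188; rho = 0.67, p = 0.0831, adjusted p = 0.214; r = 0.45 without antibody animals 2 and 3). By contrast Bgn and Vcan lie on different chromosomes. None of the 21 pairs with Fmod, Prelp or Hspg2 passed, and Hspg2 had r below 0 with 4 of the other 8. All animals share one tissue source, and the cell makeup of each lesion was not measured apart from the markers given here.

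**Figure D5:**
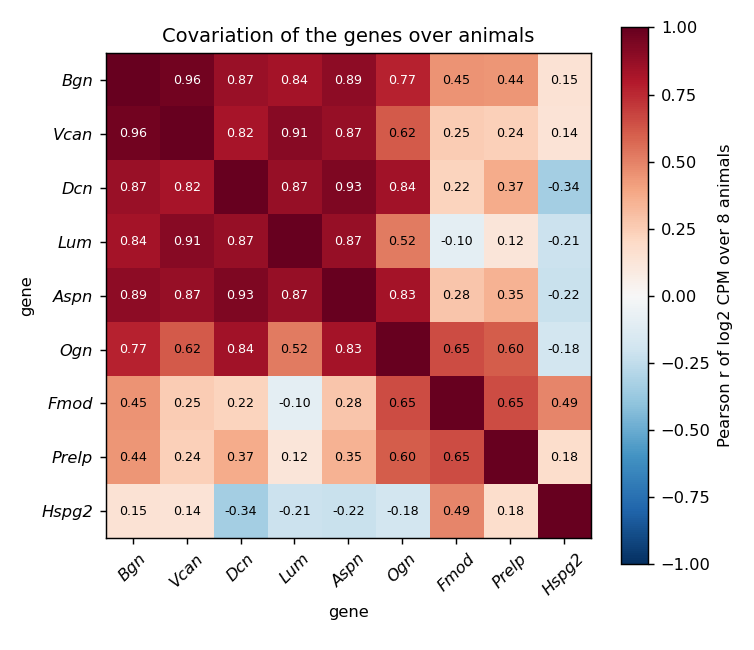
Pearson r of log2 CPM over the 8 animals for each pair of the 9 genes, red for positive and blue for negative. Bgn, Vcan, Dcn, Lum and Aspn form a block at 0.82 to 0.96, and Hspg2 lies between -0.34 and 0.49 with the others.

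In 6 ratios between the genes, no difference between treatments was found at this sample size. They were Lum to Dcn, Dcn to Bgn, Bgn to Hspg2, Ogn to Aspn, Fmod to Prelp and Vcan to Hspg2. Ratios of the other pairs were not tested. The ratio of Lum to Dcn per kilobase was 0.605, 0.610, 0.704 and 0.786 in antibody animals, against 0.452, 0.761, 1.14 and 0.770 in IgG animals. IgG animals held both the lowest and the highest ratio, and IgG animal 3 was the only one with more Lum than Dcn. The ratio of Dcn to Bgn was 0.945 to 1.08 in antibody animals, against 0.689 in IgG animal 2 and 1.24 to 1.28 in the other IgG animals. Over 6 ratios tested, the exact permutation p was 0.43 to 0.83 (two-sided, adjusted p = 0.83 for each), where the smallest p that 4 against 4 animals allow is 0.0286.

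The relatives and neighbours of these genes did not pass an adjusted p of 0.05 either, and their levels ranged widely. Of 10 other small leucine-rich proteoglycan genes, 9 passed the filter, 0 passed an adjusted p of 0.05, and the median log2 fold change was -0.10. Ecm2, the neighbour of Aspn, had 39.98, 77.1, 34.4 and 56.0 CPM in antibody animals, against 54.1, 34.7, 43.7 and 53.2 CPM in IgG animals. As for Ogn, antibody animal 2 was the highest of the 8 and antibody animal 3 the lowest. Omd, between them, had 2.98 to 9.57 CPM in antibody and 2.67 to 7.97 CPM in IgG animals. Epyc, in the Dcn cluster, had a log2 fold change of -0.49 ± 0.30, Podnl1 had -0.55 ± 0.31, and Kera was at 0 to 6 counts per library and was filtered out. Nyx, a gene known from the retina and barely detected here, had 0.333 ± 0.0633 CPM in antibody and 0.737 ± 0.0982 CPM in IgG animals (SD, n = 4). Its groups did not overlap and its log2 fold change was -1.13 ± 0.30 (edgeR unadjusted p = 0.00413, adjusted p = 0.9997).

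Other proteoglycans and the enzymes that build their chains had medians near that of all genes, while single genes ranged from -0.91 to 0.75 on the log2 scale. Of 24 other secreted and cell-surface proteoglycans, 23 were tested, 14 were below 0 and the median log2 fold change was -0.04. Acan, the large proteoglycan of cartilage, had 25.1 ± 6.79 CPM in antibody and 35.2 ± 13.1 CPM in IgG animals, Prg4 (lubricin) had -0.91 ± 0.56 and Bcan had 0.75 ± 0.46 on the log2 scale. Of 38 genes of glycosaminoglycan chain synthesis, 37 were tested, 27 were below 0 and the median was -0.08, against -0.01 for all genes. Hs3st1, a heparan sulfate sulfotransferase, had 9.61 ± 1.56 CPM in antibody and 12.1 ± 0.772 CPM in IgG animals (log2 fold change -0.34 ± 0.15), Ext1, a heparan sulfate polymerase, -0.25 ± 0.14, and Ugdh, which makes the UDP-glucuronate precursor, -0.22 ± 0.15. Of 13 hyaluronan and link protein genes, 12 were tested, 8 were below 0 and the median was -0.17, with the hyaluronan receptors Hmmr at -0.54 ± 0.23 and Lyve1 at -0.50 ± 0.31 and the synthase Has1 at -0.43 ± 0.31. Hapln1 itself had 0.481 to 2.10 CPM in antibody and 0.541 to 1.09 CPM in IgG animals. In none of these lists did a gene pass an adjusted p of 0.05 (edgeR), and at an unadjusted p under 0.05 there were 1 in chain synthesis (Hs3st1), 1 among hyaluronan genes (Hmmr) and 0 among the other proteoglycans, against 3.19% of all genes.

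Among 18 genes for proteases that cut proteoglycans, with an inhibitor, 17 were tested and 15 were below 0, with a median of -0.21. Mmp13, a collagenase, had 30.3 ± 13.05 CPM in antibody and 69.9 ± 37.5 CPM in IgG animals (log2 fold change -1.21 ± 0.46, edgeR unadjusted p = 0.0277, adjusted p = 0.9997), Mmp3, a stromelysin, had -0.70 ± 0.42 and Hpse, the heparanase, -0.43 ± 0.25. The collagens and other matrix proteins listed as partners of the 9 genes were below 0 for 19 of 21. Their median was -0.20 and 0 were past either threshold. Over all genes tested, 52.3% were below 0 and 3.19% had an unadjusted edgeR p under 0.05. Col3a1 had 3022 ± 512 CPM in antibody and 4335 ± 1522 CPM in IgG animals (-0.52 ± 0.30), Col1a1 -0.47 ± 0.33 and Pcolce, an enhancer of procollagen processing, -0.29 ± 0.13. Such lists had been seen to be mostly below 0 in an earlier look at these data, so their counts are not independent evidence of a direction.

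Marker lists of the cells of the segment are given beside these values. Smooth muscle markers were above 0 for 7 of 8 (median 0.10, Des 0.31 ± 0.17, Cnn1 0.25 ± 0.45, Smtn -0.13 ± 0.24), adventitial fibroblast markers below 0 for 12 of 12 (median -0.18, Dpp4 -0.52 ± 0.28, Pi16 -0.29 ± 0.15, Ly6a -0.22 ± 0.21) and macrophage markers below 0 for 9 of 9 (median -0.33, Csf1r -0.38 ± 0.15, Aif1 -0.50 ± 0.23, Adgre1 -0.48 ± 0.23). Fibroblasts and smooth muscle cells are the usual makers of these proteoglycans. The fibroblast markers summed to 1933 CPM in antibody animal 3, the lowest of the 8. Their sums were 2658 to 3480 CPM in the other antibody animals and 2569 to 3449 CPM in IgG animals. Chondrocyte markers were above 0 for 5 of 7 tested (median 0.30, Acan -0.49 ± 0.31, Col9a2 0.35 ± 0.34, and the chondromodulin gene, listed as Lect1, 0.55 ± 0.25), with a sum of 121 to 207 CPM in antibody and 119.7 to 207 CPM in IgG animals. Of the defining cartilage genes, Col2a1 had 39.1 to 75.8 CPM in antibody and 24.1 to 90.2 CPM in IgG animals, and Comp had 38.2 to 86.6 CPM in antibody and 50.7 to 97.1 CPM in IgG animals. Matn1 had 0 to 4 counts per library and Matn3 2 to 20. Endothelial markers were below 0 for 6 of 8 (median -0.07, Vwf -0.16 ± 0.13, Pecam1 -0.14 ± 0.14, Kdr 0.23 ± 0.26). Adipocyte markers were above 0 for 7 of 8 (median 0.30, Cidea 0.64 ± 0.24, Adipoq 0.36 ± 0.22, Lep -1.11 ± 0.81). Antibody animal 3 had by far the highest sum of these, 9374 CPM. The other antibody animals had 3656 to 5371 CPM and IgG animals 4548 to 4702 CPM. The counts of signs in the fibroblast and adipocyte lists were not examined with antibody animal 3 left out. Skeletal and cardiac muscle markers were below 0 for 5 of 9 tested (median -0.14, Myh6 -3.27 ± 1.23, Myh2 1.21 ± 0.56, Myh1 1.26 ± 0.99). The value of Myh6 rests on 1 library: it had 0.981 to 2.27 CPM in antibody animals, against 59.6 CPM in IgG animal 2 and 1.11 to 4.26 CPM in the other IgG animals. All values are log2 fold changes ± SE, and 0 marker genes passed an adjusted p of 0.05 with edgeR. An unadjusted p under 0.05 was reached by 1 of 9 macrophage markers (Csf1r) and 1 of 8 adipocyte markers (Cidea). Of 9 skeletal and cardiac muscle markers 1 reached it (Myh6), and no gene of the other marker lists did. Over all genes that share was 3.19%, and 52.3% of all genes had a fold change below 0. The part of the markers in the levels of the 9 genes was not tested.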

How the data were processed

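The authors deposited raw counts of reads per gene symbol for 8 libraries, made with featureCounts 1.4.6-p4 over exons of the UCSC mm9 annotation, per the file headers, which show no option for strand or read pairs. Reads placed at several sites or over more than 1 gene stayed out of the counts, per the deposited status table. The exon length in the same deposited table is the other value used. STAR 3.0, CASAVA, DESeq2 and Subread are tools listed in the notes, per the submitters' processing notes, with no role stated.

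From the counts, 15980 genes passed the edgeR filterByExpr rule (minimum count 10, minimum total 15). The quasi-likelihood test of edgeR compared antibody with IgG (version 4.0.16, R 4.3.3) under TMM scaling and no covariate, with Benjamini-Hochberg adjustment over all genes and a threshold of 0.05; the scripts were tested on simulated data. Standard errors come from the fold change and F. CPM used TMM-scaled library sizes; correlations used log2 CPM with a prior count of 2. Labels state 4 animals per group. Alternatives were RLE and total-count scaling, no filter, DESeq2 1.42.0, limma-voom (limma 3.58.1), the replicate number as a block, an exact permutation test on log2(CPM + 0.5) and each library left out. Besides the 9 genes, 13 lists of 187 genes were described, all found in the table, Cnmd under Lect1; up to 3 genes per list with the smallest p are named, and chromosomal neighbours. The members and lists were chosen with earlier results of these data known.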

Additional observations from a re-analysis of the deposited data

Results flagged for a closer look

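IgG animal 2 was marked as lying far from the other IgG animals in 4 measures. It had 21902802 counts assigned to genes, against 28747515 to 29453014 in the others, and 24.4% of alignments assigned, against 33.2% to 34.9%. Its skeletal and cardiac muscle markers summed to 147 CPM, against 13.5 to 25.1 CPM. Its ratio of Dcn to Bgn per kilobase was 0.689, against 1.24 to 1.28. In 66 groups of 4 examined this way, chance alone flags about 5% of groups. All 4 marks fell on IgG animal 2 and the groups share libraries, so that share cannot decide whether the marks arose by chance. The assigned counts and the assigned share are also related measures. No single gene among the 9 proteoglycans was far enough from its group in CPM to be marked.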

How the results depend on the processing

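None of the 9 genes passed an adjusted p of 0.05 in any of the 15 refits, 14 planned and 1 chosen after seeing the data. Over all genes the count called was 0 with edgeR, 8 with DESeq2, 2 with limma-voom and 0 to 1 with 1 animal left out (1 without antibody animal 2 and 1 without IgG animal 1). With 1 animal left out, 3 to 7 of the 9 fold changes were below 0. In those refits the log2 fold change of Bgn ran from -0.27 to 0.06 (0.0555), Fmod from -0.09 (-0.0851) to 0.26, Ogn from -0.35 to 0.24, Aspn from -0.36 to 0.02 (0.0221), Vcan from -0.51 to 0.00125 and Hspg2 from -0.02 (-0.0241) to 0.17; Dcn ran from -0.50 (-0.496) to -0.09 (-0.0928), Lum from -0.79 to -0.06 (-0.0593) and Prelp from 0.06 (0.0615) to 0.20, and these 3 kept their sign under all 16 alternatives. Ogn was -0.24 in limma-voom, -0.09 (-0.0902) in the permutation test and -0.11 (-0.115) with the replicate number as a block, which called 0 of 9. Same-numbered animals had correlations of 0.29, -0.34, -0.13 and -0.0012 in their deviations from group means. Differently numbered animals had correlations of -0.52 to 0.46, so the same-numbered ones did not stand out. With 4 same-numbered correlations of mixed sign, these values cannot decide whether the numbers pair the animals. Bgn was 0.0038 without antibody animal 3 and IgG animal 2. The cause of these changes was not tested. With 4 animals per group, intervals for Lum, Dcn and Vcan include 2-fold falls. Each of the 9 had at least 478 counts per library, and the effect of depth on the calls was not tested.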
